A study of Drosophila melanogaster with 4 samples.

Results

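The Polycomb group genes of Drosophila melanogaster were examined here for binding of the CG8924 protein in embryos. Their 10 members were taken from a fixed list of names, namely Pc, ph-p, ph-d, Psc, Su(z)2, E(z), Su(z)12, esc, pho and Sfmbt, and all 10 were found among the 13945 protein-coding genes of the 6 chromosome arms analysed. Binding was mapped by chromatin immunoprecipitation with sequencing (ChIP-seq), in which an antibody against green fluorescent protein (GFP) pulls down the DNA fragments that a GFP-tagged protein sits on. The embryos were whole, of pooled sex and 0 to 24 h old, and came from 1 transgenic line that stably expresses CG8924 with GFP at its C terminus. There were 4 biological replicates of this 1 group and no second genotype, treatment or stage, so no conditions could be compared. The promoter that drives the tagged protein is not given in the sources used here, and chromatin of all cell types and of a whole day of development was mixed in each sample, so a binding site cannot be assigned to a cell type or stage.

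Polycomb group proteins keep developmental genes such as the Hox genes silent through cell divisions, and they work in several complexes. In Polycomb repressive complex 1 (PRC1), Pc reads the histone methyl mark through its chromodomain, the 2 Polyhomeotic proteins from ph-p and ph-d can polymerise through a SAM domain, and Psc or its relative Su(z)2 compacts chromatin. PRC2 writes that mark, with E(z) as the methyltransferase and Su(z)12 and Esc as partners it needs for activity. The Pho repressive complex holds Pho, a zinc finger protein that binds DNA directly, and Sfmbt, an MBT-domain protein that bridges it to the other complexes. Several Polycomb genes are known to be bound by Polycomb proteins themselves. The data here say where CG8924 was bound and not whether these genes were silent or active.

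The sequences under 5 of the summits are given first, because they carry high signal outside annotated exons or sit at a promoter of a listed gene. A summit is the single base where the signal of a peak was highest. Each stretch is the plus strand of Release 6 (dm6) of the RefSeq genome, up to 50 bases either side of the summit and cut back where an annotated exon begins. Capitals mark matches, on either strand, to the word TTTAAA or to the Pho core GCCAT. Another motif that capitals would mark, the GAGA factor core GAGAG, is in none of the 5 stretches.
Pc side, intron of CG11309, 3L:21304517-21304608, rank 15: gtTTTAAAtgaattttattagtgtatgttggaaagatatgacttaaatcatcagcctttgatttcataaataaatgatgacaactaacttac
ph-p, X:2137290-2137390, rank 30: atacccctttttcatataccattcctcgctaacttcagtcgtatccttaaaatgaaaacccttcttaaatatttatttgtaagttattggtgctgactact
ph-d, X:2124097-2124197, rank 67: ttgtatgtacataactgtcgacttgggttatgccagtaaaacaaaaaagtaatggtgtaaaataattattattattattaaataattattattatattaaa
Sfmbt, 2L:13176889-13176952, rank 1539: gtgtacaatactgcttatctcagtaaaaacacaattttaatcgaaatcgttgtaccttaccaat
Su(z)12 and Pfdn6, 3L:19923551-19923651, rank 2136: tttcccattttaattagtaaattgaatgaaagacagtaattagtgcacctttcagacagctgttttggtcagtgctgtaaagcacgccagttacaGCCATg
The stretches of ph-p and ph-d hold 67.3% and 80.2% adenine and thymine, and those of Sfmbt and Su(z)12 hold 68.8% and 61.4%.

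CG8924 was bound at the promoters of 8 of the 10 genes, and the exceptions were esc and pho. A gene counted as bound at its promoter when a summit of the authors' thresholded list lay within 500 bp of one of its transcription start sites (TSSs); 31.4% of all protein-coding genes had such a summit. The thresholded list holds 7842 peaks called on the pooled reads of replicates 2, 3 and 4, and rank 1 is its highest signal. With a reach of 5 kb beyond each gene end, the same 8 genes had a thresholded summit, against 60.7% of all protein-coding genes. In the longer pooled list of 30000 peaks 9 of the 10 had one, against 76.1%. The listed genes are long, with a median of 8.36 kb (2.202 to 15.0 kb) against 2.17 kb for all protein-coding genes, and a longer gene has a wider reach. They had a median of 3 thresholded summits each, against 1 per protein-coding gene. Per length, the joined reach of the 10 genes held 1.57 summits per 10 kb, against 0.661 in the joined reach of all protein-coding genes.

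In all, 28 thresholded summits lay at these genes, in 25 distinct intervals, and 2 of the 28 fall within reach of both ph-p and ph-d. Of the 28, 19 lay within 500 bp of a TSS of some gene, where 52.8% of all thresholded summits lie. Another 5 were in introns, 3 between genes and 1 in a 3′ UTR. The nearest TSS belonged to a listed gene for 17 of them and to 11 other genes for the remaining 11. Signal values are the authors' own and serve here only to rank peaks within a list. The 28 ran from 302.5 to 7142 with a median of 698.4, against a median of 517.9 over the whole list, and their median rank was 2526, against 3922. Ranks 1 to 100, which are 1.28% of the list, held 5 of the 28. Pc, ph-p, ph-d and Psc had at least 1 of these 100 within 5 kb, as did 2.07% of all protein-coding genes. These 4 are genes of PRC1, but Su(z)2 of PRC1 had none, with a highest rank of 925. Of the 4, only ph-p had such a summit within 500 bp of its own TSS. That of ph-d lay 861 bp upstream of its TSS and is also in reach of ph-p. Those of Pc and Psc lay nearest to the TSSs of CG11309 and of a long non-coding RNA. Such ranks were not limited to PRC1 genes, as the wider list of Polycomb genes below shows. Another 35 summits at the 10 genes were in the pooled list only.

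**Figure D1:**
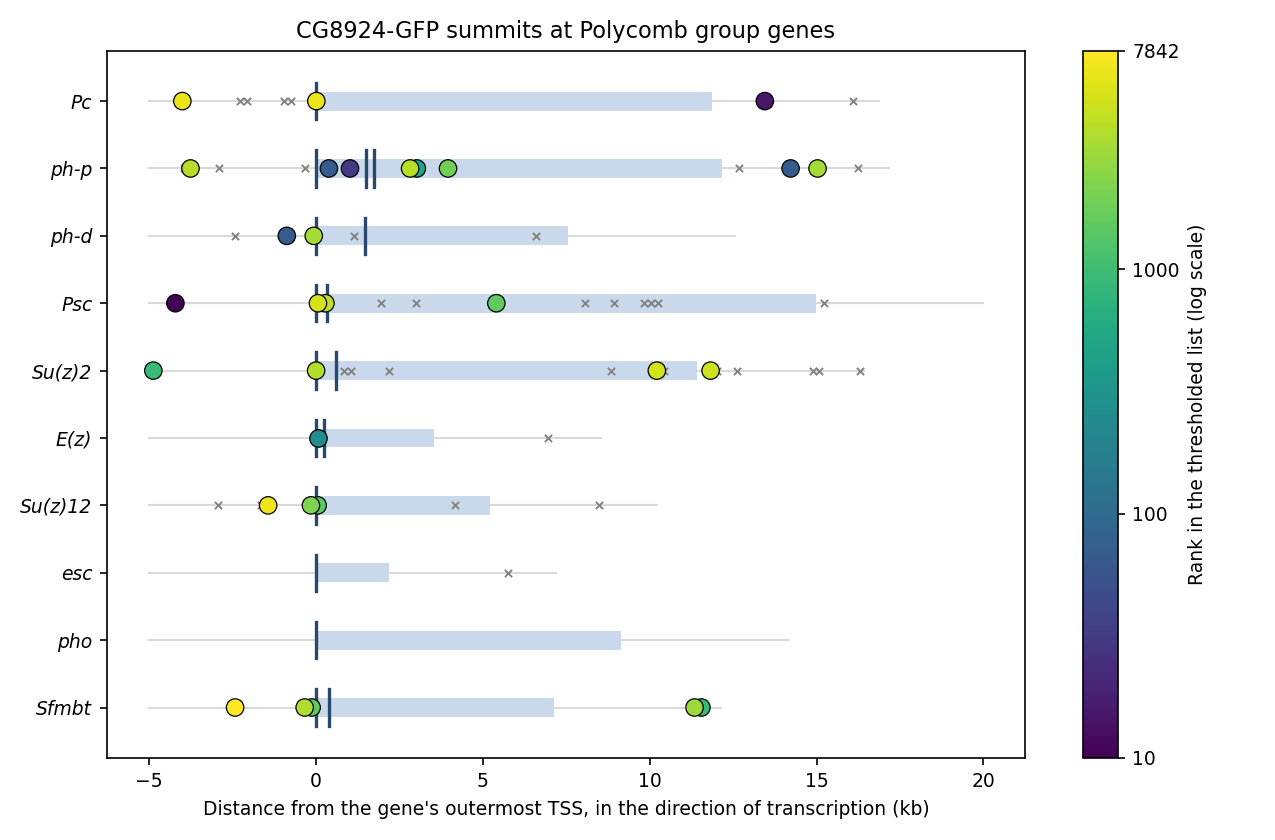
Positions of summits along the 10 Polycomb group genes, in kb from each gene's outermost TSS in the direction of transcription. Bars are genes, vertical ticks are TSSs, thin lines are the 5 kb reach, circles are thresholded summits coloured by rank on a log scale (dark is high signal) and crosses are summits of the pooled list only. The darkest circles lie upstream of Psc and beyond the 3′ end of Pc, while esc and pho have no circle.

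Of the 5 listed genes of PRC1, ph-p had the most thresholded summits within reach, 2 of which lie nearest to ph-d. The gene lies on the minus strand of X from 2126210 to 2138371, with TSSs at 2138371, 2136855 and 2136622, and 8 thresholded summits lay within its reach; 0.990% of protein-coding genes had as many or more. An interval of 1613 bp, from 2136637 to 2138249, covered most of the stretch between the outer and the inner TSSs, and only 3 intervals of the thresholded list, itself included, were at least as wide. It held the summit at 2137340, with signal 5759 and rank 30, which is 485 bp upstream of the middle TSS and 1031 bp inside the outer one. This summit ranked 44, 7, 41 and 12 in replicates 1 to 4. The same interval held the summit at 2137972, in the 5′ UTR 399 bp downstream of the outer TSS, with signal 4206 and rank 69. It ranked 128 in replicate 1 and 42, 49 and 41 in replicates 2 to 4, so replicate 1 stood lower than the others.

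Another 3 ph-p summits were intronic. The summit at 2135338, 1284 bp downstream of the inner TSS, had signal 1785 and rank 497, and its replicate ranks of 572, 550, 441 and 436 were close together. A second summit of the same interval, at 2135540, had rank 3889 and was far less steady, with ranks of 4590, 10497, 19663 and 6637. The third, at 2134405, had rank 1860 and replicate ranks from 1395 to 2585. Upstream of ph-p, a summit at 2142115 in an intron of D2hgdh, which encodes a hydroxyglutarate dehydrogenase, had rank 3878. It was outside the top 7842 of replicate 3, where it ranked 7972.

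The neighbouring copy, ph-d, lies on the same strand of X from 2115727 to 2123286, with TSSs at 2123286 and 2121792, and had 2 thresholded summits, both upstream of it. The stronger one, at 2124147, was 861 bp upstream of the outer TSS, with signal 4258 and rank 67, and ranked 46, 163, 40 and 63 in the 4 replicates, with replicate 2 lowest. The weaker one, at 2123340, was 54 bp upstream, with signal 592.8 and rank 3208, and ranked 3081, 3764, 1404 and 6586. The body of ph-d held no thresholded summit. In the pooled list its best further summit had rank 8256, just below the end of the thresholded list, 332 bp upstream of the inner TSS.

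ph-p and ph-d arose by a tandem duplication, and the copies are still close in sequence. Their bodies aligned over 4480 bp at 92.0% identity, and no thresholded summit lay in that stretch of either gene. Upstream, a stretch aligned over 529 bp at 90.7% identity, one of 358 bp at 81.0% and one of 387 bp at 70.5%. In this alignment the outer TSS of ph-d falls exactly on the middle TSS of ph-p. The ph-d promoter summit at 2123340 falls on base 2136909 of ph-p, inside the 1613 bp interval but 431 bp from its nearest summit. The base under the ph-p summit of rank 69 falls on base 2124277, and the ph-d summit of rank 67 lies 130 bp from it. The bases under the ph-p summit of rank 30 and the ph-d summit of rank 67 lie in no aligned stretch. The window round the ph-d promoter summit and its counterpart at ph-p are shown because they show how alike the copies are, with capitals for bases that differ or have no counterpart in the other copy.
ph-d, X:2123290-2123390: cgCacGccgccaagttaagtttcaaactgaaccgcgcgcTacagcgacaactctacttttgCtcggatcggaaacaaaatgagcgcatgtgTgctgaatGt
ph-p, X:2136859-2136960: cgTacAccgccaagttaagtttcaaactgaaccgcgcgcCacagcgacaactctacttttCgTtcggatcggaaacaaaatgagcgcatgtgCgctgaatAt
The windows differ at 6 bases and by 1 inserted base over 101 bases of ph-d. How reads that match both copies were placed is not given in the sources used here, so the split of signal between such stretches of ph-p and ph-d is uncertain. Of the 28 summits, each taken with 250 bp either side, 5 had another close match in the genome, 4 of them at these 2 genes.

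**Figure D2:**
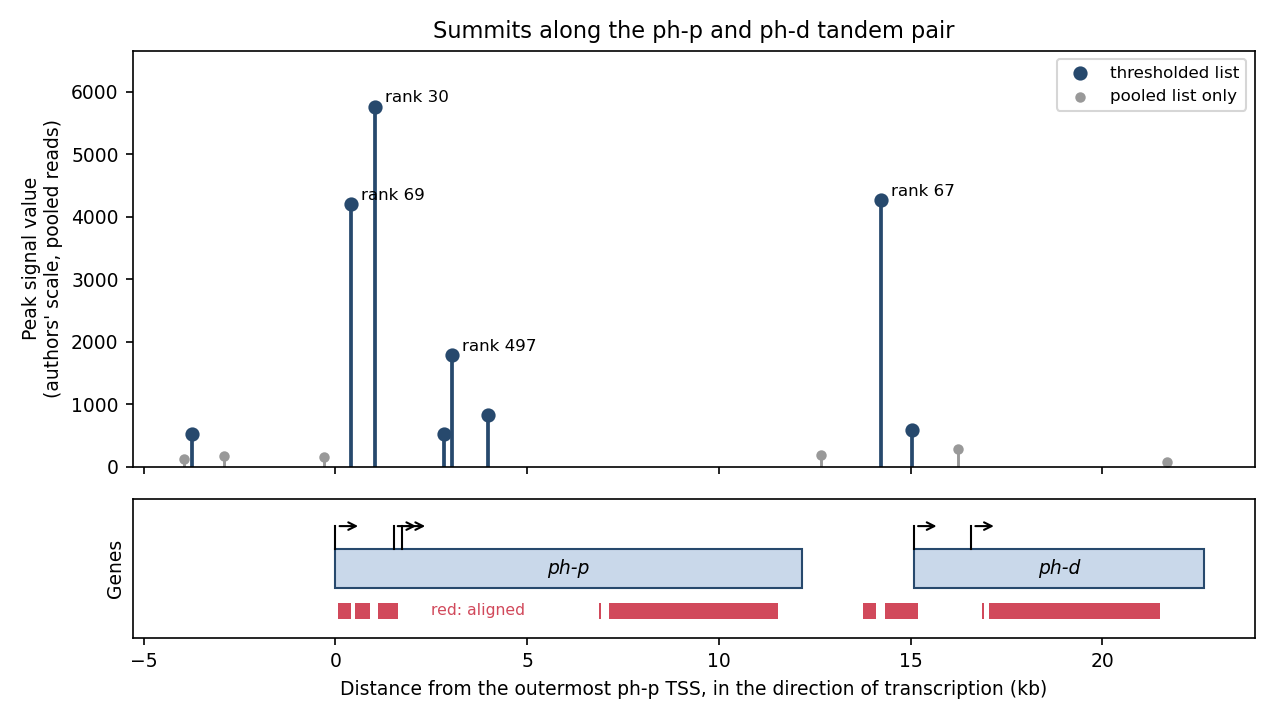
Signal of the summits along ph-p and ph-d, in the authors' units on pooled reads, against distance in kb from the outermost ph-p TSS in the direction of transcription. Dark points are thresholded summits, grey points are in the pooled list only, arrows are TSSs and red bars are stretches that align between the copies. The 3 highest points, of rank 30, 69 and 67, lie upstream of the aligned gene bodies.

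At the pair of neighbours Psc and Su(z)2, the highest signal lay between the genes and not at their promoters. Psc is on the minus strand of 2R from 12965997 to 12980994, with TSSs at 12980994 and 12980658, and Su(z)2 lies divergently on the plus strand from 12996501 to 13007911, with TSSs at 12996501 and 12997123. The summit at 12985191 had the highest signal of all 28, at 7142 and rank 10. It lies 4197 bp upstream of the outer Psc TSS and 176 bp upstream of a long non-coding RNA, lncRNA:CR44339. It ranked 18, 13, 5 and 10 in the 4 replicates, so all 4 placed it among their 18 highest peaks. A second summit between the genes, at 12991643, had signal 1284 and rank 925. It is 4858 bp upstream of Su(z)2 and 2254 bp upstream of CG33798, which has the nearest TSS. The replicate ranks of this summit were 709, 2295, 472 and 875, with replicate 2 lowest.

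The promoters of both genes were bound at middle ranks. Psc had summits 40 bp upstream of its inner TSS and 72 bp downstream of its outer TSS, with signals of 500.5 and 425.6 and ranks of 4115 and 5111, both in its 5′ UTR. The first ranked 4140, 4920, 1289 and 2181 in the 4 replicates. The second had only a peak of rank 16458 in replicate 1, and replicates 2 and 4 gave both summits the same peak, so the 2 summits are not separate there. Su(z)2 had a summit 16 bp downstream of its outer TSS, with signal 542.2 and rank 3678, and it ranked 7412, 2881, 1933 and 3830. An intron of Psc held a steadier site at 12975581, with rank 1543 and replicate ranks of 1837, 1709, 1731 and 1547. At the other end of Su(z)2, a summit in its 3′ UTR had rank 5004, and one 418 bp past its end had rank 4706. The pooled list added 8 summits at Psc, the best at rank 9431, and 10 at Su(z)2, the best at rank 7968 and 235 bp downstream of the inner TSS.

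**Figure D3:**
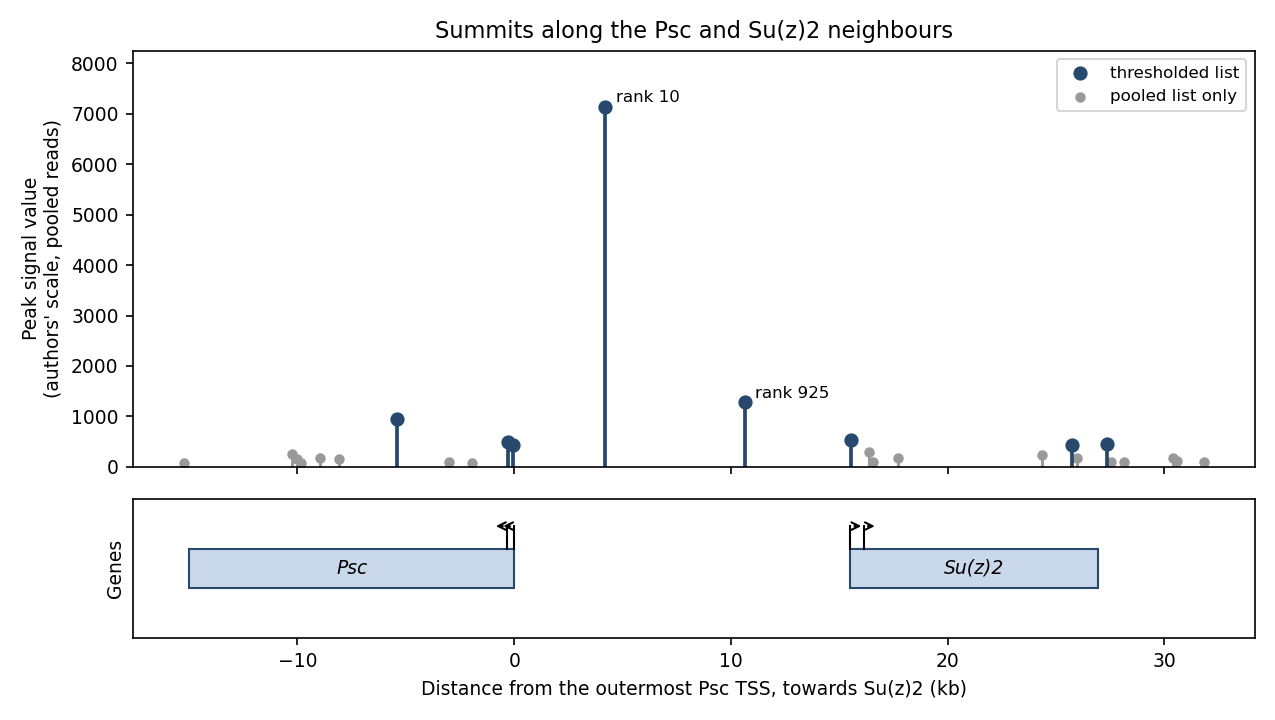
Signal of the summits along Psc and Su(z)2, in the authors' units on pooled reads, against distance in kb from the outermost Psc TSS towards Su(z)2. Dark points are thresholded summits, grey points are in the pooled list only and arrows are TSSs. The summit of rank 10 stands between the genes at a signal of 7142, and the next highest, of rank 925, is at 1284.

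Pc itself was weakly bound, and its high rank came from a neighbour. Pc is on the minus strand of 3L from 21306138 to 21318020 with 1 TSS. Its promoter summit, 23 bp downstream of the TSS in the 5′ UTR, had signal 352.1 and rank 6412. It ranked 4703, 6463, 5684 and 8172, and so missed the top 7842 of replicate 4. The strong summit, at 21304567 with signal 6909 and rank 15, lies 1571 bp past the 3′ end of Pc, in an intron of CG11309 and 91 bp downstream of a CG11309 TSS. It ranked 24, 9, 16 and 13 in the 4 replicates. A summit 3989 bp upstream of Pc, within Rab26, a gene of the Rab family of small GTPases, had rank 6340. It matched a peak in replicates 1 and 3, at ranks 6000 and 7520, and none in replicates 2 and 4. Among the 5 further summits of the pooled list, the best had rank 14519 and lay 20 bp upstream of Rab26.

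Of the 3 PRC2 genes, E(z) had the highest promoter rank and Su(z)12 a middle one, while esc had no thresholded summit. E(z), on the minus strand of 3L from 10634575 to 10638130, had 1 thresholded summit, 67 bp downstream of its outer TSS in the 5′ UTR, with signal 2500 and rank 253. Its replicate ranks of 297, 241, 217 and 227 spanned a narrow range. The TSS of the divergent neighbour Cnep1r2, which encodes a regulator of a nuclear envelope phosphatase, is 16 bp from that of E(z), so this summit cannot be given to 1 of the 2 promoters.

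Su(z)12 is on the minus strand of 3L from 19918242 to 19923462, and its TSS is 209 bp from that of the divergent Pfdn6, which encodes a subunit of the chaperone prefoldin. A summit 63 bp downstream of the Su(z)12 TSS had signal 985.1 and rank 1420, and one 139 bp upstream had signal 767.2 and rank 2136. The first ranked 569, 6480, 1531 and 2958 in the 4 replicates, and the second 879, 6480, 2709 and 2958. By nearest summit, replicates 2 and 4 each gave both summits the same peak, but the first also overlapped a separate, stronger peak of replicate 2, at rank 4290. Replicate 1 ranked both above the other replicates. A further summit, 61 bp upstream of Grasp65, which encodes a Golgi stacking protein, had rank 6624, and only replicates 1 and 4 held it in their top 7842 peaks.

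esc, the gene of the WD-repeat subunit of PRC2, is short and lies inside the span of Pde1c, a cyclic nucleotide phosphodiesterase gene, on 2L from 11827204 to 11829405. Its nearest thresholded summit was 10626 bp beyond the gene. The pooled list held 1 peak within 5 kb, in an intron of Pde1c 3564 bp past the end of esc, with signal 98.3 and rank 21275. Replicate 1 had peaks of rank 18605 and 22738 within reach and replicate 4 a peak of rank 19626, and replicates 2 and 3 had none.

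Of the 2 genes of the Pho repressive complex, Sfmbt had thresholded summits within 500 bp of a TSS and pho had none. Sfmbt, on the minus strand of 2L from 13169649 to 13176785, had 5 thresholded summits in reach and none inside the gene. The summit nearest to it lay 117 bp upstream of its outer TSS, with signal 942.9 and rank 1539, and ranked 1342, 2248, 1403 and 2072. The next, 326 bp upstream, is 39 bp upstream of the divergent CG5439, and had signal 552.3 and rank 3580. Its replicate ranks were 3624, 4108, 2979 and 11236, with replicate 4 apart from the rest. Another gene, CG43925, starts 41 bp from the inner Sfmbt TSS on the opposite strand. The nearest TSS was that of Sfmbt for the first of these 2 summits and that of CG5439 for the next. With the promoters so close together, neither summit can be given to Sfmbt alone. The remaining 3 sat at promoters of other genes. DnaJ-H, which encodes a chaperone of the DnaJ type, had the summit of highest signal in this set, 213 bp upstream of its TSS at rank 906. In the same interval the summit at rank 2915 lay 127 bp upstream of Sirt1, a protein deacetylase gene. Alg7, an enzyme gene of N-glycosylation, had one at rank 7647, which had no summit within 250 bp in replicate 1.

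pho, on the minus strand of chromosome 4 from 1172469 to 1181628, had no summit in reach even in the pooled list, and the nearest was 50299 bp away. Replicate 1 alone held a peak there, from 1181666 to 1182165, with its summit 288 bp upstream of the pho TSS and rank 2992. Its −log10 q-value in that replicate's deposited list was 4.39, the highest value there. High peaks can share 1 such value, as all peaks of the thresholded list do at 4.25, so the rank says more about this peak. Replicate 1 is not among the replicates whose reads were pooled, and replicates 2, 3 and 4 had no peak within 5 kb of pho. Chromosome 4 held 41 thresholded peaks, or 0.523% of the list, and 183, 138, 186 and 166 of the 30000 peaks of replicates 1 to 4, so the arm was not empty in any list.

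How often the binding at these genes recurred in all replicates depended on the overlap asked for. A replicate supported a summit if one of its own 7842 highest peaks overlapped the peak by at least 1 bp. All 4 replicates supported 22 of the 28 (78.6%), against 64.2% over the whole list. The 2 shares were not matched for signal, and the 28 had a median rank of 2526, against 3922 for the list. Another 3 summits had the support of 3 replicates and 3 of 2. With an overlap of 50% of both peaks the count was 7 of the 28, and with summits within 100 bp it was 15. The share over the whole list is not given here for these stricter rules, so the fall cannot be called particular to these summits. Replicate 1, whose reads were not in the pooled list, supported 26 of the 28. Replicates 2 to 4, whose reads made that list, supported 25, 26 and 26. When each replicate's own 7842 highest peaks were used in place of the thresholded list, 9, 8, 8 and 7 of the 10 genes had a promoter summit, a mean of 8 ± 0.82 (SD, n = 4). Likewise 9, 8, 8 and 8 had a summit within 5 kb, and replicate 1 was the one with 9, since it alone had a peak at pho. The shares of all protein-coding genes in the replicates' own lists are not given here. These counts therefore show only how far the lists differ at the 10 genes. The number of distinct summits was 30, 23, 28 and 30, a mean of 27.8 ± 3.3 (SD, n = 4). All lists were called against the same control, so agreement between them is not independent of it.

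**Figure D4:**
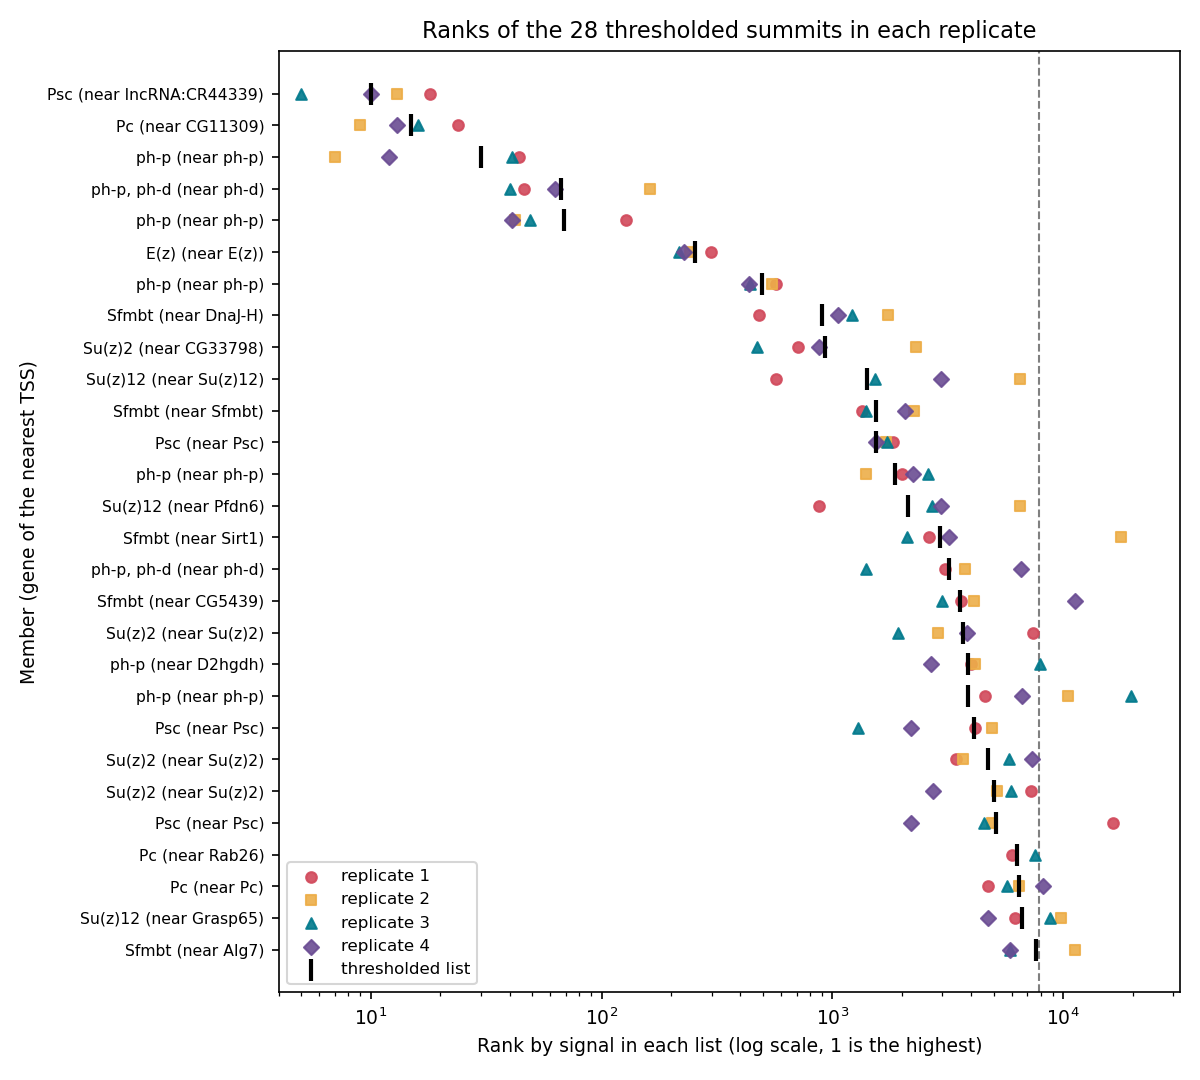
Rank of each of the 28 thresholded summits in the thresholded list (black bar) and in each replicate's list (coloured marks), on a log scale where 1 is the highest signal. Rows are named by the listed gene and, in brackets, the gene of the nearest TSS, and the dashed line is the end of the thresholded list at 7842. In the top row, upstream of Psc, all marks lie between 5 and 18, and the marks spread out for weaker summits.

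The reach of 5 kb decided some of these results. Just inside it lay the summits of rank 925 at Su(z)2, 906 at Sfmbt and 10 at Psc, which are 4858, 4418 and 4197 bp beyond the gene. Just outside lay summits of rank 1083 near RhoGDI, 5249 bp from Su(z)12, and of rank 130 and 120 near CG13321, 6572 and 7801 bp from Psc.

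Around the summits the DNA was rich in A and T, as it was at all thresholded summits. Windows of 101 bp at the 28 summits held a median of 65.8% A and T (interquartile range 59.4% to 72.3%), against 54.5% in windows 500 bp to either side of them. Over the whole thresholded list the medians were 67.3% at summits and 56.4% at the flanks, and windows at protein-coding TSSs held 56.4%. The spread among the 28 was wide, from 41.6% at the Psc summit downstream of its outer TSS to 81.2% at DnaJ-H near Sfmbt. The summits of rank 10, 15 and 67 held 76.2%, 75.2% and 80.2%, and those of rank 30 and 69 held 67.3% and 70.3%.

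**Figure D5:**
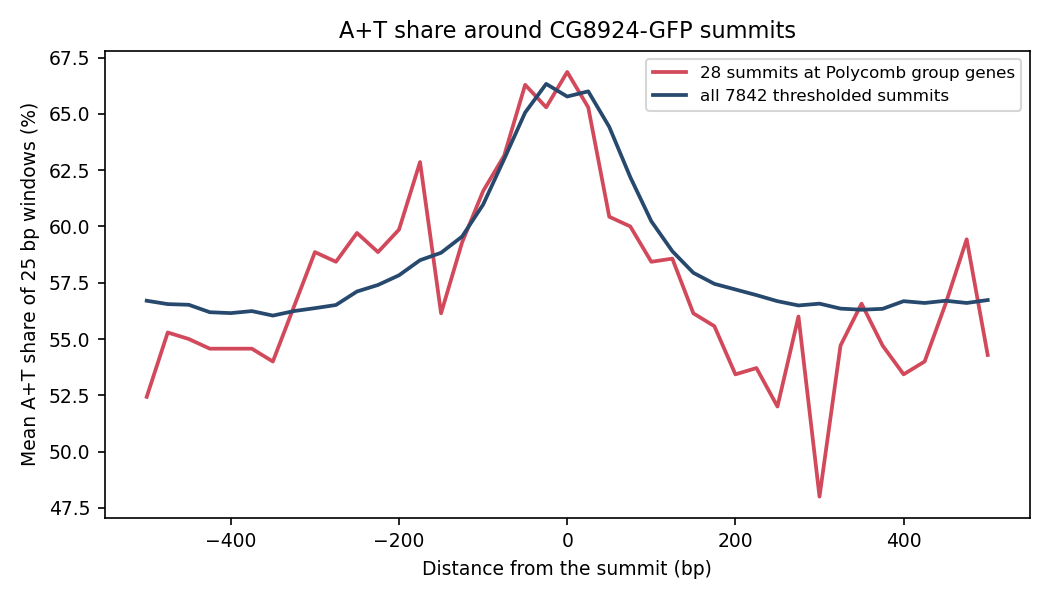
Mean share of A and T in windows of 25 bp against distance from the summit in bp, along the plus strand, for the 28 summits at Polycomb group genes and for all 7842 thresholded summits. Both lines are highest within 25 bp of the summit, at 66.9% for the 28 and 66.3% for all, and the line of the 28 is rougher because it averages few windows.

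Short motifs of factors known to work with Polycomb proteins were searched on both strands of the 101 bp windows. GAGAG, of the GAGA factor, was in 3 of the 28, against 11.3% of all thresholded summits and 12.7% of windows of that length at protein-coding TSSs. GCCAT, the Pho core, was in 3, against 12.6% and 16.8%. TGAGTG, bound by Zeste, was in 2, against 4.13% and 4.78%, and GTGTG, bound by Combgap, in 5, against 18.4% and 23.6%. GAAAA, linked to Dsp1, was in 10, against 47.6% and 44.1%. CAGGTAG, bound by the early activator Zelda, was in 0 of the 28, against 0.472% and 0.483%. The motif of the promoter factor DREF, TATCGATA, was in 1, the promoter of Sfmbt outside the bases printed above, against 2.03% and 4.48%.

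TTTAAA, a word taken up after the data had been seen, was in 5 of the 28 windows, against 19.6% of all thresholded summits, 8.77% of their flanks and 8.36% of TSS windows. The 5 windows were those of rank 10 upstream of Psc, rank 15 in CG11309, rank 253 at E(z), rank 906 at DnaJ-H and rank 7647 at Alg7. ATTTAAAA, which contains it, was in the 2 of highest rank, upstream of Psc and in CG11309, against 6.15% of all thresholded summits. The high summits of ph-p and ph-d, printed above for ranks 30 and 67, hold no TTTAAA. A match in such a window is a description of the sequence and not a mapped site.

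Other genes of the Polycomb system were bound at their promoters in 19 of 25 cases, against the 31.4% of protein-coding genes given above, and 24 of the 25 had a thresholded summit within 5 kb, against 60.7%. A list of 26 genes was used, of which calypso had no single match. The lengths of these genes are not given here, and a longer gene has a wider reach, so the share within 5 kb is not adjusted for length. By role, promoter summits were found at 3 of 5 genes of PRC1, 3 of 5 of PRC2, at phol, the relative of pho, at Asx of the deubiquitinase complex and at all 8 genes of DNA-binding factors and partners. The highest promoter ranks belonged to cg, which encodes Combgap, at 1712 and Trl, the gene of the GAGA factor, at 1779. Dsp1, an HMG-box protein gene, followed at 2085, and l(3)73Ah, a RING-finger gene of the Psc family, at 2194. The zinc finger gene jing had rank 2455, the histone demethylase gene Kdm2 2688, the BTB-domain gene lolal 2752 and Jarid2, a PRC2 cofactor gene, 3249. The best promoter summits of ph-p, at 30, E(z), at 253, Su(z)12, at 1420, and Sfmbt, at 1539, ranked above all of these. Those of Su(z)2, at 3678, Psc, at 4115, and Pc, at 6412, ranked below all of these, and that of ph-d, at 3208, above Jarid2 only. Sce, RYBP, escl, Pcl and crm had no promoter summit but had one within 5 kb, and sxc, which encodes the enzyme that adds O-linked N-acetylglucosamine, had neither. Counted within 5 kb, the highest ranks were 8 at Caf1-55 of PRC2, 11 at Trl and 31 at Kdm2. The PRC1 genes Scm, l(3)73Ah, RYBP and Sce stood at 1730, 2194, 2341 and 6860 by that measure.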

How the data were processed

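The labels give 4 biological replicates of 1 group. The authors deposited a peak list of 30000 peaks for each replicate, a pooled list of 30000 and a thresholded list of 7842, on dm6 per the labels. The aligner and the peak caller were not given in the sources used here. Per the submitters' notes, reads of replicates 2, 3 and 4 went into the pooled and the thresholded list, and every list shares 1 control. The thresholded list equals the top 7842 of the pooled list by signal. The authors' deposited signal value gives the height of a peak within 1 list and served only to rank and describe peaks. In the pooled list the deposited −log10 q-value ran from 0.432 to 4.25. Depth is unknown, so no interval is given, and a shallower replicate could have less exact ranks.

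Genes were taken from Ensembl release 115 (18164 genes after transposable elements were left out), and sequences from the RefSeq Release 6 genome, whose arm lengths match. A summit belonged to a gene if it lay inside it or within 5 kb. A replicate's rank was that of its nearest summit within 250 bp. Copies were found with BLAST 2.17.0. Python 3.11.15, NumPy 2.4.6 and pandas 2.3.3 were used, and the counting steps were tested on simulated data. All 10 genes were named with every thresholded summit, and of the other Polycomb genes up to 8 by promoter rank and those with no summit. No test was made, since there is 1 condition: counts are set beside the share of all genes or peaks. The genes and lists were chosen with earlier results of these data known. Alternatives changed the promoter window, the reach, the list, the overlap rule, the matching rule, the motif window and the replicates used.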

Additional observations from a re-analysis of the deposited data

Results flagged for a closer look

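For 26 of the 28 summits all 4 replicates held a matched peak, and their ranks were examined on the log2 scale together with the 3 counts per replicate, 29 groups of 4 values in all. Chance flags about 1 in 20 such groups if their values vary without ties and the groups are unrelated. That rate is only rough here, since some summits share a replicate's peak and the counts are small whole numbers. A count that differs in 1 replicate from tied others is always flagged. The ph-p summit of rank 69, in the 5′ UTR, ranked 128 in replicate 1, against 41 to 49 in the others, so that the gap from replicate 1 to the nearest other replicate takes up most of the range. The number of listed genes with a summit within 5 kb in a replicate's own list was 9 in replicate 1, against 8 in each other replicate, where the added gene was pho.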

How the results depend on the processing

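The number of summits at the 10 genes fell to 13 when only gene bodies counted, against 28 with the 5 kb reach, and was 19 at 1 kb and 37 at 10 kb. Support by all 4 replicates fell to 7 of the 28 when overlap of 50% of both peaks was asked, against 22 with 1 bp, and was 15 for summits within 100 bp. How far it falls over the whole list under these rules is not given here. The causes were not tested. Genes with a promoter summit numbered 6 to 9 and genes with a summit in reach 6 to 9 over all alternatives run. With a promoter window of 200 bp the count was 7, and ph-p was lost, since its summits lie 399 and 485 bp from its nearest TSS. Leaving out each replicate in turn gave 7 to 8 genes with a promoter summit, 8 with a summit within 5 kb and 22 to 23 supported summits. Here a summit counted if all remaining replicates supported it, since the thresholded list cannot be rebuilt without a replicate. The Pc promoter summit, supported by replicates 1, 2 and 3, counted only when replicate 4 was left out. The count of 7 with a replicate left out thus reflects this added demand. The highest rank of 5 genes rests on the reach: by promoter summits alone it was 6412 for Pc, 4115 for Psc, 3678 for Su(z)2, 3208 for ph-d and 1539 for Sfmbt. With a motif window of 201 bp GAGAG was in 8 of the 28, GAAAA in 17 and TTTAAA in 9. The shares of all thresholded summits were 23.9%, 73.9% and 33.3%. CAGGTAG was in 1 of the 28, against 0.893%. No paired analysis was possible because there is 1 group and no test. Depth is unknown, so an absent summit at esc and pho means only that none was listed.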
